A study of Mus musculus with 6 samples.

Results

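The genes described here are 6 that set how much active SREBP2 a cell makes or that act beside it in cholesterol handling, namely Srebf2, Scap, Insig1, Insig2, Mylip and Stard4. They were taken by name from the 38561 genes of the deposited tables, and all 6 were among the 16425 genes with enough counts to be tested. They were selected on the genotype difference in the counts of these same libraries, known from an earlier pass over the data, so the genotype values of these 6 genes are a description and not independent evidence. RNA of the small intestinal mucosa was sequenced in 6 pools, 3 labelled with the genotype Rbm47_IKO and 3 labelled wt. Both groups were mice on a C57BL/6J background, of both sexes, 8 to 12 weeks old per the labels, with RNA of 3 mice in each pool. The methods of the study give wider ranges for the age and for the number of mice per pool. In the methods of the study both lines carry the floxed Rbm47 allele (Rbm47 fl/fl), and the IKO line adds a constitutive Cre driven by the villin promoter (Vil-Cre), which is active along the small and large intestinal epithelium and in scattered cells of the urogenital tract. The methods give chow as the diet where no other is named. The labels call the control animals wild type, where the methods give Rbm47 fl/fl controls. Muscle, stromal and immune cells of the mucosa do not carry the deletion by design. The part of Rbm47 that is deleted was not given in the sources used here.

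SREBP2, the product of Srebf2, is made as a membrane protein of the endoplasmic reticulum, bound to its escort SCAP. When membrane cholesterol is low, SCAP carries SREBP2 in COPII vesicles to the Golgi, where the proteases S1P and S2P release the part that enters the nucleus and switches on the enzymes of cholesterol synthesis. When cholesterol is high, SCAP is held back by INSIG1 or INSIG2. The small intestine both makes cholesterol and takes it up from the diet and bile, and enterocytes use this pathway to balance both sources.

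Srebf2 and the INSIG genes are shown by sequence because their values differed most between genotypes. The windows below run from 250 bases before to 50 bases after an annotated start site, on the strand of the gene, as given by RefSeq on GRCm38.p6. Of the 6 genes, 5 had at least 1 such window. Insig2 has 3 annotated start regions, which give transcripts with different first exons, and its most distal and most proximal windows are printed. Capitals mark matches on either strand to 4 motifs, namely TCACNCCA (a sequence resembling a sterol regulatory element), CCAAT (bound by NF-Y), CACGTG (an E-box) and GGGCGG (a GC box bound by SP1). The motifs were chosen with these windows in view, and matches to different motifs did not overlap in the printed windows.
Srebf2, chr15:82147019-82147318, plus strand: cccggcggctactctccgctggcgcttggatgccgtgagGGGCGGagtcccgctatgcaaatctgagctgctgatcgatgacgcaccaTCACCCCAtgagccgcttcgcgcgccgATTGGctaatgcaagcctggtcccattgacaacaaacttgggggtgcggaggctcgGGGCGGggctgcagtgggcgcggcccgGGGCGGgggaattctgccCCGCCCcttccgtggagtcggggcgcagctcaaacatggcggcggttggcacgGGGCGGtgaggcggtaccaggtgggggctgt
Insig1, chr5:28071162-28071461, plus strand: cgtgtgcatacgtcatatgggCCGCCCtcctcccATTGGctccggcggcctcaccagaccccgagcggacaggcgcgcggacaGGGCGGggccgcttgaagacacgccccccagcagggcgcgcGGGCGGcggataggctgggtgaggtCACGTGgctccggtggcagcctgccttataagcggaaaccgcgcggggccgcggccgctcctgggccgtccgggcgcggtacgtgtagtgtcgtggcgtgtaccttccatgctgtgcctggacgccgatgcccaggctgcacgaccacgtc
Insig2 distal, chr1:121332540-121332839, minus strand: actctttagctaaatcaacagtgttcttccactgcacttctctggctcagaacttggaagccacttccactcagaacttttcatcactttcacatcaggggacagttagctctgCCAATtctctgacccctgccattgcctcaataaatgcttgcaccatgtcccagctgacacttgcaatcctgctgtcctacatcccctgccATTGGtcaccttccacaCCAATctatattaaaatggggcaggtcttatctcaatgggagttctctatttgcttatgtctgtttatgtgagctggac
Insig2 proximal, chr1:121327629-121327928, minus strand: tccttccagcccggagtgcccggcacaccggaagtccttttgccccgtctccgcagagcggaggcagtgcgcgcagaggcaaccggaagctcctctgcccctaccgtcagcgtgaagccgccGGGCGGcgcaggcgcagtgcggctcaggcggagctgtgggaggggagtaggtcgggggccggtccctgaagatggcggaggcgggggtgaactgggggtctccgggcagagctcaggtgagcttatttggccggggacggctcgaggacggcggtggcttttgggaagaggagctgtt

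The Srebf2 window held TCACCCCA 162 bases before the start site, an ATTGG (the reverse complement of CCAAT) 135 bases before it, and 5 GC boxes. It was the only window among those of the 5 genes with a match to TCACNCCA, which was present in 4.36% of all 32851 windows of 300 bases. The Insig1 window held an E-box 101 bases and an ATTGG 216 bases before the start site, with 3 GC boxes. The distal Insig2 window held 3 matches to CCAAT and no GC box, whereas the proximal window held 1 GC box and no CCAAT. The 5 genes have 8 windows in all, and the 2 of Scap overlap each other. The CCAAT motif was present in 4 of the 8 (Srebf2, Insig1, Mylip and the distal one of Insig2), against 37.4% of all windows. CACGTG was present in 3 (Insig1 and both of Scap, where it is the same site), against 7.15%. GGGCGG was present in 7 (all but the distal one of Insig2), against 35.7%. A match is a description of the letters and does not show that a factor was bound.

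Srebf2 also carries a microRNA gene within its span. Mir33 (chr15:82198122-82198190, plus strand, GRCm38.p6) is transcribed with its host, and miR-33 is known to lower ABCA1, a cholesterol exporter. Its mature 5p form is printed from RefSeq with the seed, bases 2 to 8, in capitals.
mmu-miR-33-5p: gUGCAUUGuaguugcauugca
The libraries were selected for polyadenylated RNA, which does not capture mature microRNAs. The Mir33 feature had 1, 0 and 3 counts in the IKO-labelled libraries and 0, 1 and 0 in the control pools, and no difference is read from them. Abca1 had normalized CPM of 200.3, 247.9 and 305.1 in the IKO-labelled libraries and 401.0, 241.9 and 188.0 in the controls, and the pools overlapped (log2 fold change -0.14, SE 0.28, edgeR adjusted p = 0.88).

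The targeted gene, Rbm47, had more counts in the pools labelled IKO than in the controls. Its normalized CPM (its count relative to a library size corrected by the TMM method) was 602.7, 624.6 and 619.8 with the IKO label, against 459.8, 449.9 and 472.1 with the wt label. All 3 IKO-labelled pools were above all controls, a log2 fold change of 0.42 (SE 0.10, edgeR adjusted p = 0.0751, and 0.00105 with DESeq2). The tables count reads over all exons of a gene, and the targeted gene went against the labels. The pools are therefore called the IKO-labelled libraries, and every direction below is that of the label. The pools held 31560320 to 38951830 counts, in ranges that overlapped between genotypes. Over all genes tested, 443 passed a Benjamini-Hochberg adjusted p of 0.05 in the quasi-likelihood test of edgeR. With IKO-labelled library 2 left out, 0 genes passed, with 1729 genes at an unadjusted p under 0.05. Nothing in the labels says that the mice of different pools came from separate litters or cages, and p-values measure the spread between these pools.

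Srebf2 was the member with the largest difference. Srebf2 (ENSMUSG00000022463, chromosome 15, 82147266 to 82205376, plus strand) encodes the precursor of SREBP2. It had a normalized CPM of 260.9, 263.0 and 241.3 in the IKO-labelled libraries and of 109.4, 110.3 and 109.2 in the controls. The 3 IKO-labelled libraries all lay far above the controls, and the controls lay close together. The means were 255.1 ± 11.96 and 109.6 ± 0.576 (SD, n = 3 pools each), which is a 2.33-fold higher level (log2 fold change 1.22, SE 0.096, edgeR adjusted p = 0.00596). By p it ranked 5 of the 16425 genes tested in either direction. In these bulk libraries a change in the share of a cell type and a change of RNA per cell cannot be told apart.

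The spread of Srebf2 between control pools was small. Its coefficient of variation was 0.53% across the control pools and 4.69% across the IKO-labelled libraries, where counting error alone gives 1.64% in the pool with the lowest count. The control value is below that counting error, and 3 pools give little precision on a spread. The control coefficients of the other genes were 4.34% for Scap, 7.23% for Insig2, 19.1% for Stard4, 26.1% for Mylip and 28.8% for Insig1.

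Scap, the escort of SREBP2 and its sensor of cholesterol, differed less. Scap (ENSMUSG00000032485, chromosome 9, 110333288 to 110384946, plus strand) had a normalized CPM of 44.34, 41.35 and 35.83 in the IKO-labelled libraries and of 35.94, 33.99 and 33.01 in the controls. The lowest of the IKO-labelled libraries lay just under the highest control, so that the groups overlapped. The log2 fold change was 0.24 (SE 0.11, edgeR adjusted p = 0.341). A short antisense gene, 5830462I19Rik, lies inside Scap and had 14 to 34 counts per pool, against at least 1170 for Scap.

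The INSIG genes, whose proteins hold SCAP in the endoplasmic reticulum, went in opposite directions. Insig1 is itself switched on by SREBP2 and so acts as a feedback brake. Insig1 (ENSMUSG00000045294, chromosome 5, 28071363 to 28078662, plus strand) had a normalized CPM of 111.1, 120.8 and 105.3 in the IKO-labelled libraries and of 40.29, 53.07 and 71.81 in the controls. All IKO-labelled libraries were above all controls, and the controls were spread widely. The means were 112.4 ± 7.84 and 55.1 ± 15.9 (SD, n = 3 pools each), a 2.04-fold higher level (log2 fold change 1.03, SE 0.20, edgeR adjusted p = 0.0434). Insig1 passed the threshold only with all 6 pools in the fit. With any 1 pool left out its adjusted p was 0.0504 to 0.215, while its log2 fold change stayed between 0.85 and 1.27. With a covariate for Y-linked genes the log2 fold change was 1.01 and the adjusted p 0.163.

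Insig2 differs from Insig1 in that SREBP2 does not switch it on. Insig2 (ENSMUSG00000003721, chromosome 1, 121304353 to 121332589, minus strand) had a normalized CPM of 23.83, 24.55 and 24.78 in the IKO-labelled libraries and of 35.26, 30.70 and 34.36 in the controls. All IKO-labelled libraries were below all controls. The means were 24.4 ± 0.495 and 33.4 ± 2.42 (SD, n = 3 pools each), a log2 fold change of -0.46 (SE 0.10) and did not pass the threshold (edgeR adjusted p = 0.0649). DESeq2 placed it past the threshold (log2 fold change -0.46, adjusted p = 0.0134). The counts are summed over the gene, and the transcripts from its different start sites were not separated.

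Stard4 encodes a soluble carrier that moves cholesterol between membranes and is itself raised when sterols are low. Stard4 (ENSMUSG00000024378, chromosome 18, 33199355 to 33213862, minus strand) had a normalized CPM of 278.1, 309.7 and 296.0 in the IKO-labelled libraries and of 224.4, 184.1 and 270.6 in the controls. All IKO-labelled libraries were above all controls, and the controls were spread widely. The log2 fold change was 0.38 (SE 0.15) and did not pass the threshold (edgeR adjusted p = 0.263).

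Mylip encodes IDOL, a ubiquitin ligase that marks lipoprotein receptors for breakdown and is switched on by the sterol sensor LXR. Mylip (ENSMUSG00000038175, chromosome 13, 45389742 to 45412019, plus strand) had a normalized CPM of 42.26, 35.25 and 32.46 in the IKO-labelled libraries and of 36.17, 25.74 and 22.09 in the controls. The groups overlapped, since control pool 1 was above 2 of the IKO-labelled libraries. The log2 fold change was 0.39 (SE 0.20, edgeR adjusted p = 0.379). Among the controls, pool 1 had the highest Mylip and the lowest Insig1, and pool 3 the lowest Mylip and the highest Insig1.

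**Figure D1:**
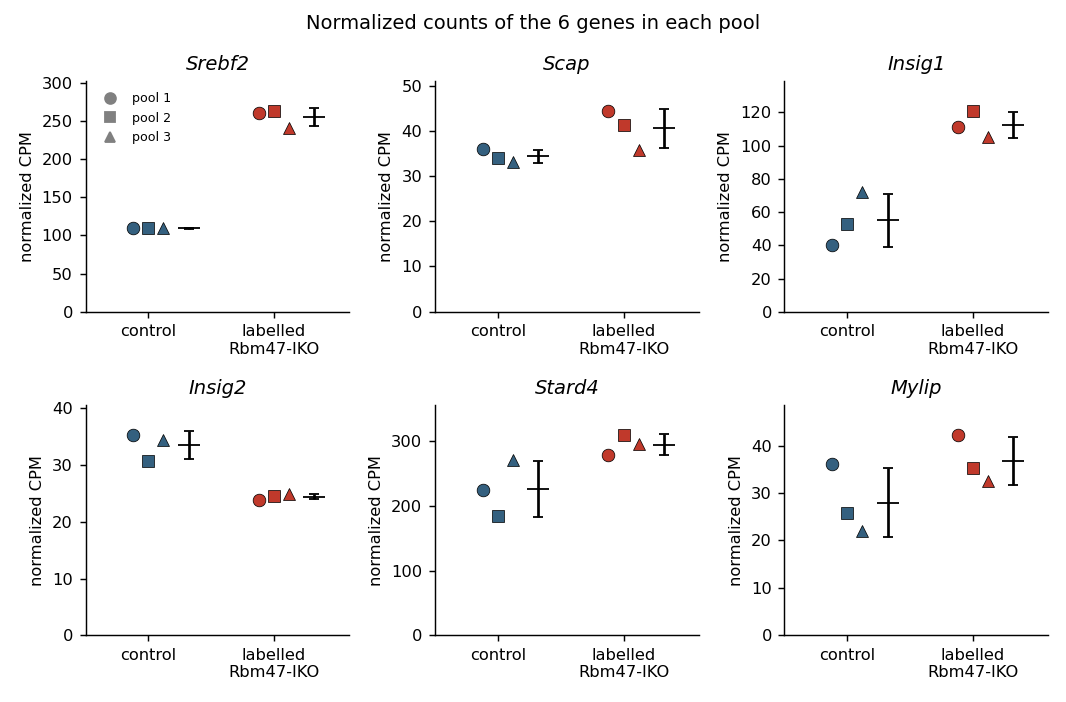
Normalized CPM of the 6 genes in each pool, on axes that start at 0; circles, squares and triangles are pools 1, 2 and 3, and the bar beside them is the mean with the SD of the 3 pools. Srebf2 and Insig1 were higher in all IKO-labelled libraries, Insig2 was lower in all of them, and the groups overlapped for Scap and Mylip.

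Of the 6 genes, 2 passed the threshold, against 2.7% of all genes tested in either direction. Both were higher, where 1.45% of all genes passed, and 0 were lower, where 1.25% did. With DESeq2, 3 of the 6 passed, against 8.39% of the genes it gave an adjusted p. The pools did not overlap for 3 genes that were higher (Srebf2, Insig1 and Stard4) and 1 that was lower (Insig2), against 11.7% and 11.6% of all genes tested, or 23.3% in both directions. The median log2 fold change of the 6 genes was 0.38, against -0.01 over all genes tested. These genes were picked with this contrast known, and nothing is read from their counts against the shares of all genes.

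Under the other settings the 6 genes kept their directions. When a single pool was left out, values on the log2 scale were 1.20 to 1.26 for Srebf2, 0.17 to 0.32 for Scap, -0.51 to -0.42 for Insig2, 0.25 to 0.53 for Stard4 and 0.25 to 0.62 for Mylip. Srebf2 passed the threshold in 5 of these 6 fits and missed it without IKO-labelled library 2 (log2 fold change 1.20, adjusted p = 0.057). Without control pool 3, the highest for Stard4, the log2 fold change of Stard4 was 0.53. Scap had the lowest value of any setting with an offset for the GC content of transcripts, 0.09 on the log2 scale, and its transcript has 59.1% GC. Srebf2 transcripts have 57.9% GC, and its log2 fold change was 1.09 with that offset. Over the 16221 tested genes with a known GC content, log2 fold change and GC content had a Spearman correlation of 0.271. The cause of that trend was not tested.

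**Figure D2:**
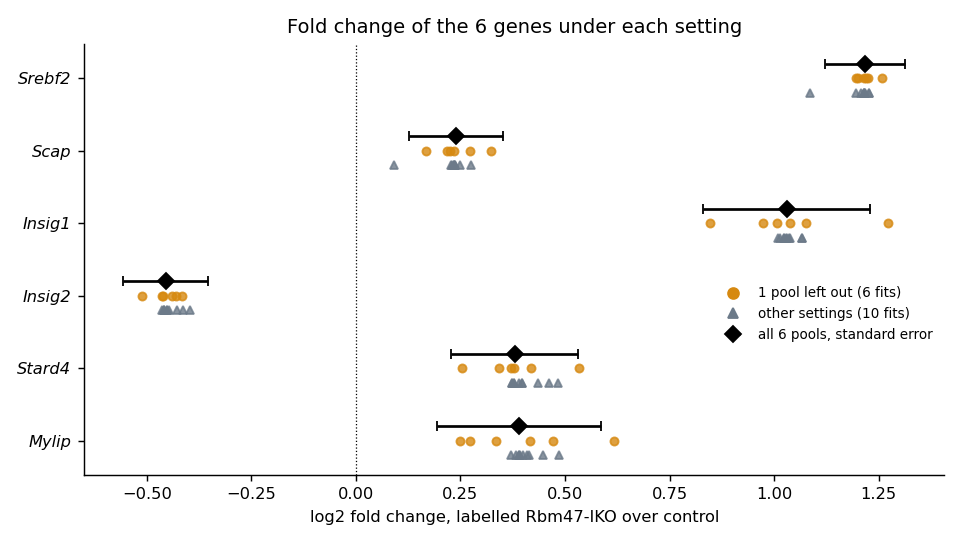
Log2 fold change of each gene, IKO-labelled libraries over controls; the diamond with its bar is the edgeR value with its standard error on all 6 pools, orange circles are the 6 fits with 1 pool left out, and grey triangles the other 10 settings. No setting moved a gene across 0, and the values of Insig1 spread over 0.85 to 1.27 when 1 pool was left out.

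Levels between genes were compared per length, as RPKM (normalized CPM per kilobase of summed exons). In the controls the order was Stard4 (40.5 RPKM), Srebf2 (22.0), Insig1 (20.4), Insig2 (9.63), Mylip (9.15) and Scap (6.59). Srebf2 and Insig1 overlapped over the control pools, as did Insig2 and Mylip. In the IKO-labelled libraries the order was Stard4 (52.7 RPKM), Srebf2 (51.1), Insig1 (41.7), Mylip (12.0), Scap (7.78) and Insig2 (7.02). Here Stard4 and Srebf2 overlapped, as did Scap and Insig2. Insig2 thus went from the fourth place in the controls to the lowest, and Srebf2 came level with Stard4.

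The ratios of these levels within a pool show how the balance of the genes differed. The ratio of Insig1 to Insig2 was 6.01, 6.34 and 5.47 in the IKO-labelled libraries and 1.47, 2.23 and 2.69 in the controls. All IKO-labelled libraries had the higher ratio. The sum of the RNA levels of both INSIG genes was 48.7 ± 2.90 RPKM in the IKO-labelled libraries and 30.0 ± 5.86 RPKM in the controls (SD, n = 3 pools each). That sum was higher in all IKO-labelled libraries and came mostly from Insig1. The ratio of Srebf2 to Insig1 was 1.23 ± 0.0472 against 1.14 ± 0.323 and overlapped between genotypes. The ratio of Srebf2 to Scap, the cargo over its escort, was 6.60 ± 0.445 against 3.34 ± 0.145 and did not overlap.

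Srebf2 was also set beside Srebf1, which encodes SREBP1, the relative of SREBP2 that favours fatty acid synthesis. The ratio of Srebf2 to Srebf1 per length was 3.24, 3.39 and 2.92 in the IKO-labelled libraries and 1.20, 1.28 and 1.34 in the controls. Srebf1 itself had a normalized CPM of 90.7 ± 2.89 and 97.6 ± 5.33 (SD, n = 3 pools each), and its pools overlapped (log2 fold change -0.11, edgeR adjusted p = 0.664). The counts do not separate the SREBP1a and SREBP1c transcripts. These ratios rest on the same contrast as the choice of the 6 genes and are given with no test.

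**Figure D3:**
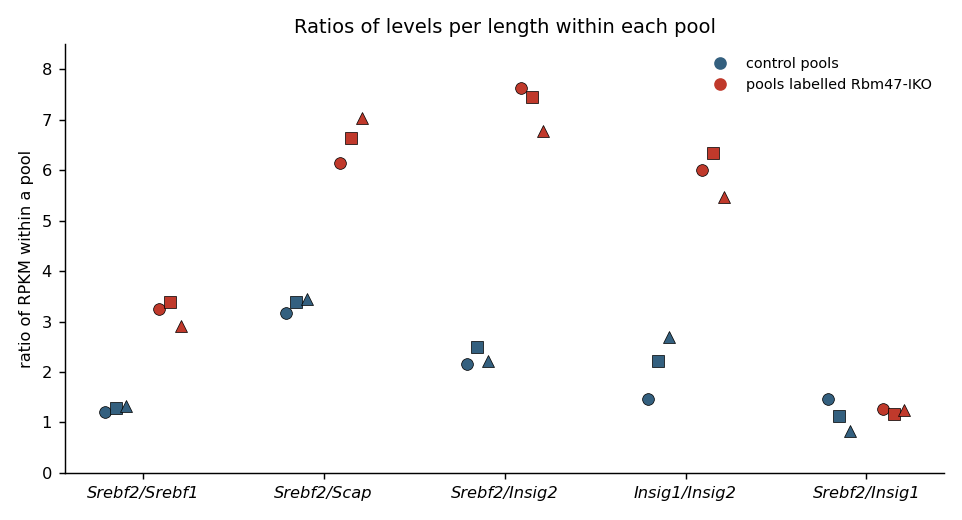
Ratios of RPKM values within each pool; circles, squares and triangles are pools 1, 2 and 3, blue for controls and red for IKO-labelled libraries. The IKO-labelled libraries had the higher ratio in all pools for Srebf2 over Srebf1, Scap and Insig2 and for Insig1 over Insig2, whereas Srebf2 over Insig1 overlapped.

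The enzymes of cholesterol synthesis, which SREBP2 switches on, were higher as a group. Of 18 genes, 15 passed the threshold, all higher, where 1.45% of all genes tested did. The pools did not overlap for 16 genes that were higher and 1 that was lower, against 11.7% and 11.6% of all genes tested. The list had a median log2 fold change of 0.93 against -0.01 over all genes. It was drawn up with results of these libraries known. Among the mevalonate enzymes, Mvd, the decarboxylase that makes isopentenyl pyrophosphate, had a normalized CPM of 31.5, 35.8 and 25.5 in the IKO-labelled libraries and of 10.5, 12.2 and 10.2 in the controls, a 2.81-fold higher level (log2 fold change 1.49, SE 0.16, edgeR adjusted p = 0.00875). Fdps and Mvk, the farnesyl pyrophosphate synthase and the mevalonate kinase, had log2 fold changes of 1.48 and 1.45. Pmvk, Idi1 and Acat2 had 1.07, 1.12 and 0.92.

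Of the listed enzymes from squalene onward, all but Ebp and Sc5d passed the threshold, higher. Fdft1, which makes squalene, had a log2 fold change of 1.42 and Sqle, which oxidizes it, 1.27. Lss, which closes the rings to lanosterol, had 0.77. Among the enzymes that turn lanosterol into cholesterol, Tm7sf2 had 1.05, Hsd17b7 0.94, Msmo1 0.87, Dhcr7 0.87, Cyp51 0.84 and Nsdhl 0.76. All 15 genes named so far passed the threshold, with edgeR adjusted p from 0.00854 to 0.0496. Hmgcs1, the synthase near the start of the pathway, had a normalized CPM of 266.2, 282.6 and 227.7 in the IKO-labelled libraries and of 180.7, 168.3 and 213.7 in the controls. It was above all controls in all 3 libraries and did not pass the threshold (log2 fold change 0.47, SE 0.14, edgeR adjusted p = 0.128). Ebp, a sterol isomerase, had overlapping pools (log2 fold change 0.32, edgeR adjusted p = 0.31). Sc5d, the lathosterol oxidase, was the exception in direction, with 121.1, 121.0 and 116.1 against 131.9, 161.3 and 206.1 (log2 fold change -0.48, edgeR adjusted p = 0.185). The number of these genes past the threshold depended on single pools. It was 0 without IKO-labelled library 2 or without control pool 3, 2 without IKO-labelled library 1, 10 without IKO-labelled library 3, 9 without control pool 1 and 11 without control pool 2, whereas all 15 genes kept their direction and an unadjusted p under 0.05 in each of these fits. With the Y-linked covariate 5 of them passed.

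**Figure D4:**
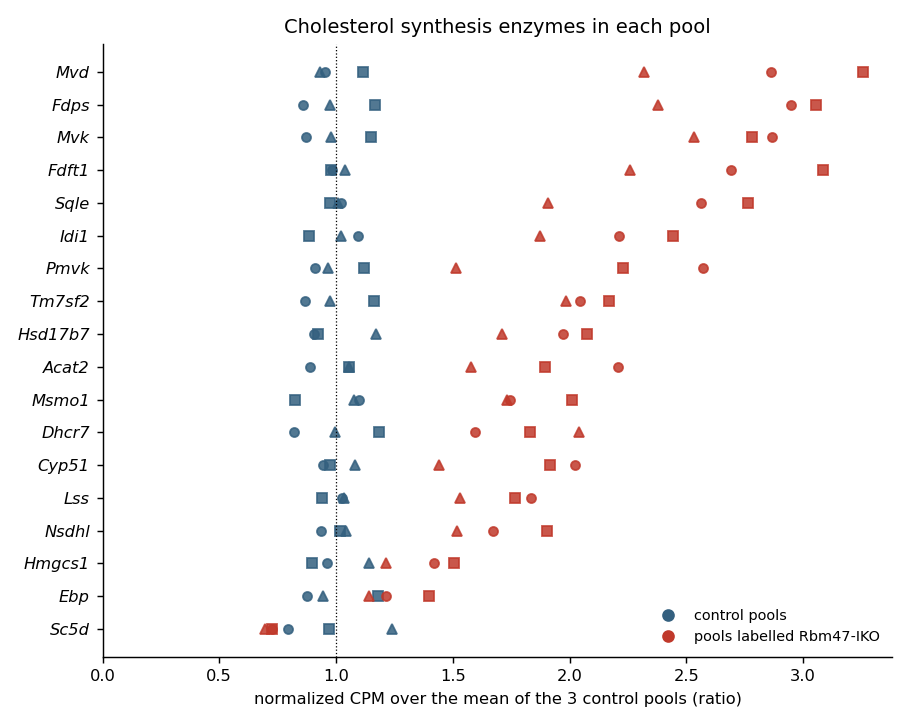
Normalized CPM of the 18 cholesterol synthesis genes in each pool, divided by the mean of the 3 control pools; circles, squares and triangles are pools 1, 2 and 3. The red points of 16 genes lie right of all their blue points, those of Ebp overlap, and those of Sc5d lie to the left.

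The genes for carrying and cutting SREBP2 were not higher as a group. Of 13 genes for proteolysis and COPII export, 2 passed the threshold, both lower (where 1.25% of all genes did), and the median log2 fold change was -0.05. Sec23a, a coat protein of the COPII vesicle, had a normalized CPM of 247.1, 244.1 and 230.1 in the IKO-labelled libraries and of 425.8, 468.6 and 581.2 in the controls. Its level was 2.05-fold higher in the controls (log2 fold change -1.03, SE 0.14, edgeR adjusted p = 0.0146), with no overlap. Mbtps2, which encodes the protease S2P, had 5.23, 4.86 and 4.99 against 10.6, 8.25 and 9.17 (log2 fold change -0.89, SE 0.17, edgeR adjusted p = 0.0393). Mbtps1, the gene of S1P, had a log2 fold change of -0.05. Sec24d and Sec24a, which select the cargo of these vesicles, had log2 fold changes of -0.54 and -0.36 and did not pass (edgeR adjusted p = 0.107 and 0.286). The 2 genes past the threshold did not pass with the Y-linked covariate, with the same direction. Mbtps2 also missed it with the GC offset (log2 fold change -0.71). When a single pool was left out, Sec23a passed in 2 and Mbtps2 in 1 of the 6 fits, always with the same direction.

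Of 12 genes around INSIG-dependent degradation, 0 passed the threshold in edgeR, with 2 at an unadjusted p under 0.05, where 2756 of the 16425 genes tested were. DESeq2 placed 1 past it, Erlin2, against 8.39% of all genes, and edgeR did so with scaling by library size only and with a filter of 1 CPM in 3 pools. Erlin2, a membrane protein of the degradation machinery, had 132.2, 133.5 and 123.2 CPM in the IKO-labelled libraries and 174.6, 175.4 and 217.5 in the controls (log2 fold change -0.55, SE 0.12, edgeR adjusted p = 0.0636). Ube2g2, a ubiquitin-conjugating enzyme of that machinery, was 0.38 higher on the log2 scale (edgeR adjusted p = 0.277).

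Around MYLIP, 1 of 8 genes for substrates and partners passed the threshold, higher, where 1.45% of all genes tested did. Usp2, a deubiquitinase described as opposing IDOL, had a normalized CPM of 95.3, 103.9 and 106.0 in the IKO-labelled libraries and of 46.8, 52.8 and 56.8 in the controls. All IKO-labelled libraries were above all controls (1.95-fold, log2 fold change 0.97, SE 0.11, edgeR adjusted p = 0.00996). With a pool left out it stayed between 0.89 and 1.04 on the log2 scale and passed in 3 of 6 fits, missing the threshold without IKO-labelled library 1 or 2 or control pool 3. It also missed it with the Y-linked covariate (adjusted p = 0.0528 in edgeR). Lrp8, a receptor that IDOL acts on, had a low level of 2.61 ± 0.495 against 1.69 ± 0.278 CPM (SD, n = 3 pools each; log2 fold change 0.63, edgeR adjusted p = 0.299). Ube2d3, a ubiquitin-conjugating enzyme, was at -0.17 on the log2 scale with overlapping pools (edgeR adjusted p = 0.695), and at 0.045 with the GC offset.

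The LXR list holds the receptors that sense oxysterols, their RXR partners and genes that LXR switches on. Mylip is another such target. Of its 13 genes, 0 passed the threshold in edgeR, with 4 at an unadjusted p under 0.05 (2756 of the 16425 genes tested were), and DESeq2 placed 2 past it, against 8.39% of all genes. The median log2 fold change was -0.14, and 10 genes had a value below 0. Smpdl3a, a secreted phosphodiesterase, was at -0.55 on the log2 scale (edgeR adjusted p = 0.107) and Abcg8, part of the apical sterol exporter, -0.39 (edgeR adjusted p = 0.13). Both were among 5 of the 13 genes that were lower in all IKO-labelled libraries, against 11.6% of all genes tested. The number higher in all of them was 0, against 11.7%. This list, too, was drawn up with results of these libraries known. Mylip, with 0.39, was above 0, as were 3 of the 13 genes, with values up to 0.33. The pools of Mylip and of these 3 genes overlapped.

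Of the 13 other genes for transport of sterols inside the cell, 0 passed the threshold in edgeR, with 4 at an unadjusted p under 0.05 (2756 of all 16425), and 0 passed with DESeq2, where 8.39% of all genes did. The median log2 fold change was -0.08. Gramd1b, which moves cholesterol from the plasma membrane to the endoplasmic reticulum, had a log2 fold change of -0.39 and Soat2, which makes cholesterol esters, -0.36 (edgeR adjusted p = 0.231 and 0.214). Stard4 lay above this list's highest gene, which had a log2 fold change of 0.32, by less than its own standard error.

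Of 10 genes of fatty acid synthesis, which SREBP1 and SREBP2 both act on, 1 passed the threshold, higher, where 1.45% of all genes tested did. Acaca, the acetyl-CoA carboxylase, had a normalized CPM of 24.5, 26.2 and 24.3 in the IKO-labelled libraries and of 16.2, 16.6 and 12.2 in the controls (log2 fold change 0.74, SE 0.15, edgeR adjusted p = 0.0451). With 1 pool left out it passed in 1 fit of 6, and it did not pass with scaling by library size only or with the Y-linked covariate. Scd2 and Fasn had larger log2 fold changes of 1.30 and 1.07 with wider spreads (SE 0.36 and 0.25, edgeR adjusted p = 0.114 and 0.0726). The median log2 fold change of the list was 0.54, with 9 of 10 genes above 0, and 7 genes were higher in all IKO-labelled libraries, against 11.7% of all genes tested. DESeq2 placed 6 of the 10 genes past the threshold, against 8.39% of all genes it gave an adjusted p.

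**Figure D5:**
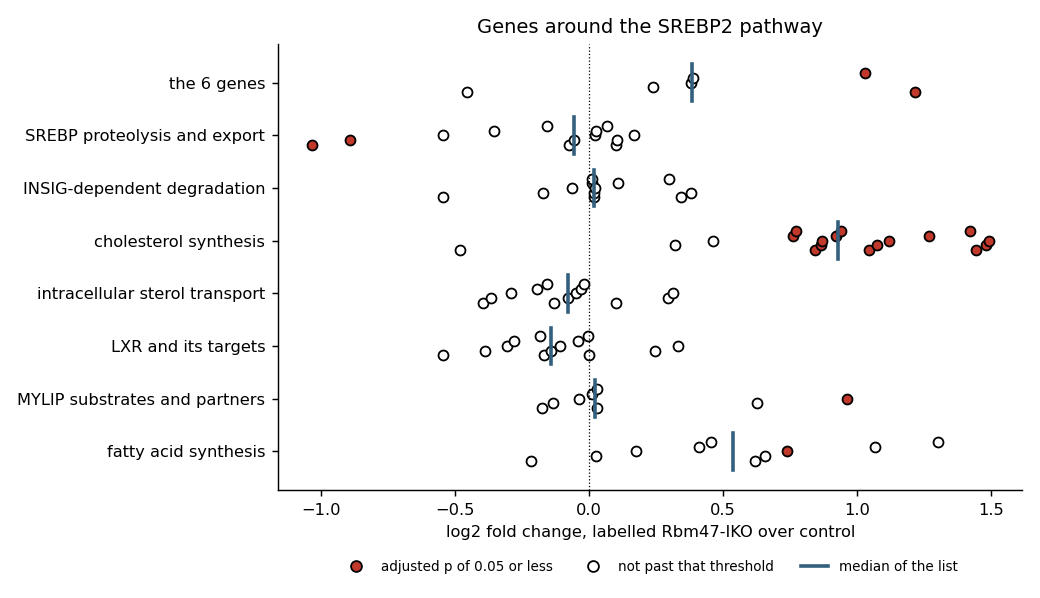
Log2 fold change of each gene in the 8 lists, IKO-labelled libraries over controls; filled red points passed the adjusted threshold and the blue line is the median of the list. The cholesterol synthesis genes lie to the right with a median of 0.93, and the medians of the lists for export, degradation, transport, LXR and MYLIP partners lie between -0.14 and 0.02, with fatty acid synthesis at 0.54.

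Markers of the cells in the mucosa were summed per pool to set beside these values. The 10 enterocyte markers summed to 42480 to 49060 CPM and overlapped between genotypes, the highest sum of the marker lists in every pool. Of these 10 genes, 2 were higher and 2 lower in all IKO-labelled libraries, against 11.7% and 11.6% of all genes tested. Of the 10, 0 passed the threshold, where 2.7% of all genes tested did in either direction. The 6 goblet cell markers summed to 22050 to 25510 CPM in the IKO-labelled libraries and 16520 to 19310 in the controls, higher in all of them, with 6 of 6 genes above 0 on the log2 scale and 0 past the threshold. The 10 enteroendocrine markers summed to 132.1 to 145.9 CPM against 178.3 to 219.1, lower in all of them, with 9 of 10 genes below 0 and 1, Ghrl, past the threshold (log2 fold change -1.44), where 1.25% of all genes tested passed lower and 1.45% higher. The part of these 2 cell types in the values of the 6 genes was not tested. The sums of the lists for proliferating crypt, smooth muscle, B and plasma, adipocyte and macrophage cells and of the Y-linked genes overlapped between genotypes, and 0 of their genes passed the threshold. All 8 B and plasma cell genes (median -0.60) and all 4 Y-linked genes (median -0.69) had log2 fold changes below 0. Smooth muscle markers ranged from 90.7 to 3302 CPM, highest in IKO-labelled library 3 and then in control pool 2 with 2803. With that sum as a covariate Srebf2 had a log2 fold change of 1.23 and Insig1 of 1.01, and both passed the threshold. The Y-linked sum was 53.0 to 143.7 CPM in the IKO-labelled libraries and 87.9 to 220.3 in the controls, and with it as a covariate Srebf2 had a log2 fold change of 1.20 and passed. No gene of these lists had 0 counts in all pools.

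The genes whose levels followed each of the 6 most closely were taken as a description over the 6 pools, which fall into 2 genotypes and share their depth, so that r partly restates the difference between genotypes. Among 9768 genes of at least 5 CPM, Srebf2 was most like Raver1, an RNA-binding protein gene (r = 0.998), and B4galnt1 (r = 0.996), and in the pathway lists Fdft1 (r = 0.991). Insig1 was most like Crlf3 and Trp53inp2 (r = 0.997 and 0.996), and in the lists Hsd17b7 (r = 0.973). Insig2 was most like Slc30a10, a manganese exporter gene, and Slc17a4, an anion transporter gene (r = 0.998 for both), and in the lists Mbtps2 (r = 0.985). Slc30a10 and Slc17a4 had log2 fold changes of -1.39 and -1.29, both larger than that of Insig2.

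Scap was most like Sdsl and ENSMUSG00000045365 (r = 0.999 and 0.995), and in the lists Fads2 (r = 0.928). Mylip was most like Nup188 and Focad (r = 0.997 for both), and in the lists Npc1 (r = 0.905). Stard4 was most like Arhgap32 and Mast2 (r = 0.992 and 0.988), and in the lists Hmgcs1 (r = 0.896). Among 9768 candidates over 6 pools, high values of r arise readily, and they carry no p here.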

How the data were processed

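For each of the 6 pools, reads had been aligned with STAR 2.5.1a and counted with featureCounts 1.4.6-p5 of Subread on GRCm38, per the submitters' processing notes. The strand setting and annotation release are not given in the sources used here. The authors deposited 1 table per pool with unnormalized counts of 38561 Ensembl genes. The deposited CPM is the count divided by the column total, and the deposited RPKM is that CPM per kilobase. Both were recomputed from the counts, differed by less than rounding and were not used further. Symbols were matched for 36639 genes, and genes without one held 0.369% of counts.

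Counts were analysed in R 4.3.3 with edgeR 4.0.16. Genes past filterByExpr (16425) were normalized by TMM and tested by genotype with the quasi-likelihood test and Benjamini-Hochberg adjustment over all of them, with a threshold of 0.05. CPM and RPKM in the text use TMM library sizes. Alternatives were DESeq2 1.42.0, limma-voom (limma 3.58.1), other scalings and filters, a pool-number block, smooth muscle and Y-linked covariates, each pool left out and, added after seeing the data, a GC offset (lowess, span 0.3). On simulated data of this comparison (200 genes changed, 16117 to 16142 tested, 3 draws), 32.5% of 2-fold and 73.6% of 4-fold changes were called, and 8.5% of calls were false. With 3 pools per genotype an exact permutation test cannot go below p = 0.1. No 2 pools agreed within sampling noise. Counting errors cover reads, which are not independent molecules.

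The 6 genes, the pathway and marker lists and the alternatives were chosen with earlier results of these data known. Named were the 6 genes, Rbm47, in each pathway list the genes past the threshold and the 2 others with the largest change, and per member the 2 genes (of at least 5 CPM on average) and 1 list gene with the highest Pearson r of log2 CPM (prior count 2). Srebf1, Abca1, Mir33, Mbtps1, Ebp, 5830462I19Rik and Ghrl are also named and were picked later, with their values in view. Some genes are not reported here and were left out of the lists. Promoter windows and the microRNA came from RefSeq (GRCm38.p6), searched on both strands.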

Additional observations from a re-analysis of the deposited data

How the results depend on the processing

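Besides the fit with all 6 pools and edgeR, 16 fits were read for the 6 genes, Rbm47 and most named list genes. These list genes were those past the threshold and, in each pathway list, the 2 others with the largest change. None of the genes followed changed direction, except that Ube2d3, not past the threshold, was at 0.045 with the GC offset. The list genes Srebf1, Abca1, Mbtps1, Ebp, Npc1 and Fads2 are also named and were not followed over these fits. The number of genes past the threshold, 443 in edgeR, was 1243 with DESeq2 (667 higher, 576 lower), 711 with the smooth muscle covariate, 59 with the Y-linked covariate, 270 with the GC offset, and 0 to 431 with 1 pool left out. The lowest were 0 without IKO-labelled library 2 (1729 at an unadjusted p under 0.05), 11 without control pool 3, 32 without IKO-labelled library 1 and 119 without IKO-labelled library 3. Of the 6 genes, 1 passed with RLE factors, the Y-linked covariate or the GC offset, where 2 had passed, and 0 to 1 with 1 pool left out. The pathway list genes past the threshold, 19 in edgeR, were 29 with DESeq2 (all 19 among them), 5 with the Y-linked covariate, and 0 to 18 with 1 pool left out (0 without IKO-labelled library 2 or control pool 3, 2 without IKO-labelled library 1, 11 without IKO-labelled library 3 or control pool 1). All 19 kept their direction and an unadjusted p under 0.05 in each fit. Srebf2 missed the threshold only without IKO-labelled library 2 (range with 1 pool left out 1.195 to 1.259). Insig1 missed it with RLE factors (1.023, adjusted p = 0.0542), the Y-linked covariate (1.009, adjusted p = 0.163), the GC offset (1.036, adjusted p = 0.0673) and with any 1 pool left out (0.847 to 1.272). Insig2 passed it with DESeq2 (-0.459). Fits with a pool left out have fewer samples, and the cause of the other differences was not tested. Mir33 had 0 to 3 counts per pool and allows no comparison. For each of the 6 genes the pool with the lowest count has a counting error of 1.2% to 3.5%.

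The pools of both genotypes are numbered 1 to 3, and nothing marks the numbers as pairs. The correlations of same-numbered deviations from the group means were 0.408, -0.003 and -0.277, and 1 of the 3 IKO-labelled libraries correlated best with its own number. Deviations from means of 3 pools cannot show whether same-numbered pools were handled together. With the pool number as a replicate block, 100 genes, 7 pathway list genes (all 7 among the 19) and 1 of the 6 genes, Srebf2, passed the threshold. The 7 held 6 of the 15 cholesterol synthesis genes, while Sec23a, Mbtps2 and Acaca did not pass, and Insig1 had a log2 fold change of 1.068 (adjusted p = 0.0818).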
